A study of Mus musculus with 2 samples.

Results

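TAC2* is 1 of 13 cell classes in the authors' annotation of mouse corneal epithelium, and its members were the cells that carry exactly this name. It held 593 of 33885 cells: 572 of the 16420 cells of the dry eye library, or 3.48% (exact 95% interval 3.21 to 3.78), and 21 of the 17465 control cells, or 0.120% (0.0744 to 0.184). The tissue came from 7 C57BL/6J mice, males aged 10 weeks, that had lost the extraorbital and intraorbital lacrimal glands of the right side to surgery, which dries that eye. After 9 days the epithelium of 7 untreated left eyes was pooled as control and that of 6 right eyes as dry eye, so treatment cannot be told apart from side, and the 2 pools share their mice; the seventh right eye was left out after an injury in surgery. Each group was 1 library of 10x Chromium 3' RNA counted by unique molecular identifiers (UMIs), so no value has a replicate, no test was made and the exact 95% intervals given with the values cover counting error alone.

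Corneal epithelium is renewed from stem cells at its rim, the limbus. Their daughters divide a few times in the basal layer as transit-amplifying cells and then move up through wing cells to the flat squamous cells of the surface. Keratin 12, the Pax6 transcription factor and the crystallin Aldh3a1 mark the corneal lineage, while keratins 6, 16 and 17 are known from wounded or stressed stratified epithelia. The names TAC1, TAC2 and the asterisk are not spelled out in the sources used here. A class drawn almost wholly from 1 library (96.5% of TAC2* cells came from dry eye) cannot be told apart from a property of that library.

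The 572 dry eye cells held 6556654 UMIs, with medians of 9868.5 UMIs, 2541.5 genes and 1.67% mitochondrial UMIs per cell. The medians were 6126 UMIs in 2857 Basal cells, 8816 in 1809 TAC2 cells and 11211 in 473 TAC1* cells of the same library, and the whole libraries had medians of 9086.5 (dry eye) and 8248 (control). Of the 572 cells, 6 lay above the 95th percentile of UMIs of their library. Barcodes shared by both libraries numbered 74, of which 4 belonged to dry eye TAC2* cells and 0 of these to a control cell of the class. Levels are given in CPM, the UMIs of a gene per 1000000 UMIs of the class. The cells were corneal by their markers. The summed level of Krt12, Pax6, Krt5, Aldh3a1 and Tkt was 24629 CPM, against 44552 in Basal, 35705 in TAC2 and 27715 in TAC1* cells. It was 24398 in Squam and 18707 in Conj cells, so this sum alone does not set the class apart from them. Of 6 immune markers 5 were at 0 (Ptprc, Lyz2, Cd3e, Tyrobp and Fcer1g), and the sixth had 1 UMI. The stromal gene Dcn was at 0, and the vessel gene Pecam1 had 1 UMI. The 4 conjunctival keratin and mucin genes Krt13, Krt4, Krt19 and Muc4 summed to 58.4 CPM, against 38.4 in Basal and 12677 in Conj cells.

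**Figure D1:**
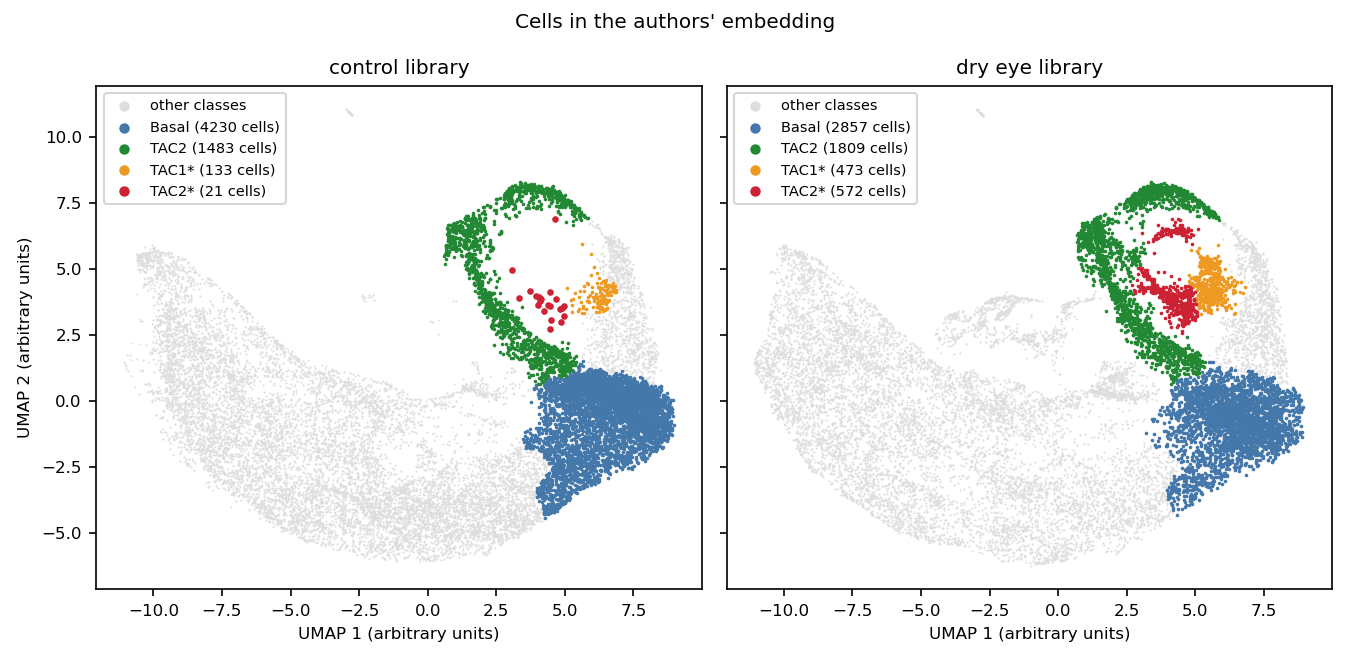
Every cell at its position in the authors' 2-dimensional embedding (UMAP 1 and 2, arbitrary units), control at the left and dry eye at the right, with Basal, TAC2, TAC1* and TAC2* coloured and other classes grey. TAC2* cells are few in control (21) and form 2 separate islands in dry eye (572).

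Cells with a UMI of Mki67 or Top2a were a minority of the class. With each cell thinned at random to 3000 UMIs, 123 of 559 dry eye TAC2* cells, 22% (18.6 to 25.7), held Mki67, a protein of cycling nuclei, or Top2a, the topoisomerase that untangles chromosomes. The share was 65.2% (62.9 to 67.5) in TAC2, 16.2% (12.9 to 19.8) in TAC1*, 13.1% in TAC1 and 2.89% in Basal cells. The surface classes Squam and Squam*, where no division is known, stood at 0.978% (0.661 to 1.39), the background of this measure. Without thinning 33.9% of TAC2* cells and 3.79% of the surface cells held either gene; the median depth of Squam cells was 9518 UMIs. The median cell had 2 of 3000 UMIs from the 26 genes of the G2 and M phase list, against 19 in TAC2 and 1 in Basal cells. By Mki67, Top2a and this median, the data go against a description of the class as mainly mitotic. It is called here by its deposited name only.

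The class lay in 2 islands of the embedding, separated by a gap along the second axis. The cells of the 2 islands differed in the cell cycle. The island at 5.63 to 6.92 held 111 cells (19.4% of the class) and the one at 2.58 to 5.04 held 461. Mki67 or Top2a was seen in 89 of 110 thinned cells of the upper island, 80.9% (72.3 to 87.8), against 34 of 449, 7.57% (5.30 to 10.4), in the lower one. The mean cell of the upper island had 14.1 UMIs of the G2 and M list and 8.75 of the S phase list per 3000, and that of the lower island 2.58 and 1.82, where Basal cells had 0.741 and 1.06. The lower island thus stood between the upper island and Basal cells in both lists. Median depth was 14176 UMIs in the upper and 9158 in the lower island, and its part in the comparison of full counts that follows was not tested.

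Of 5090 genes compared between the islands, 365 were at least 2-fold higher in the upper one (7.17%) and 53 at most 0.5-fold (1.04%). A gene was compared here and in what follows if it had at least 50 UMIs over both sets of cells and at least 20 CPM in one of them, and a gene past 2-fold in either direction counts as called. Called higher were 21 of 21 genes of the S phase list and 22 of 25 of the G2 and M list. Among those of the latter not called were the mitotic genes Ccnb2, at 52.4 CPM in the upper and 42.4 in the lower island (1.24, 0.956 to 1.59), and Cdc20, at 54.7 and 33.0 CPM (1.66, 1.27 to 2.15). Hist1h1b, a linker histone made in S phase, had 788 CPM in the upper and 10.5 in the lower island, 75.3-fold (56.8 to 102). Esco2, a cohesin acetyltransferase, stood at 99.2 CPM with 2 UMIs in the lower island, a ratio of 237 (64.7 to 1975). The ratio was 48.9 (35.7 to 68.7) for Top2a and 9.54 (7.54 to 12.2) for Mki67, as the thinned shares already imply. Lower in the upper island were Npy, a neuropeptide, at 22.6 against 89.3 CPM (ratio 0.253, 0.178 to 0.350), Fabp4, a fatty acid-binding protein, at 18.0 against 64.8 CPM (0.278), and Prg4, the lubricant proteoglycan, at 7.89 against 28.9 CPM (0.274, 0.146 to 0.475). Krt14 had a ratio of 0.751, Krt6a of 0.585 and Krt16 of 0.592. The islands are groups of the authors' embedding of the same counts and were parted after it was seen, so these ratios are a description.

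**Figure D2:**
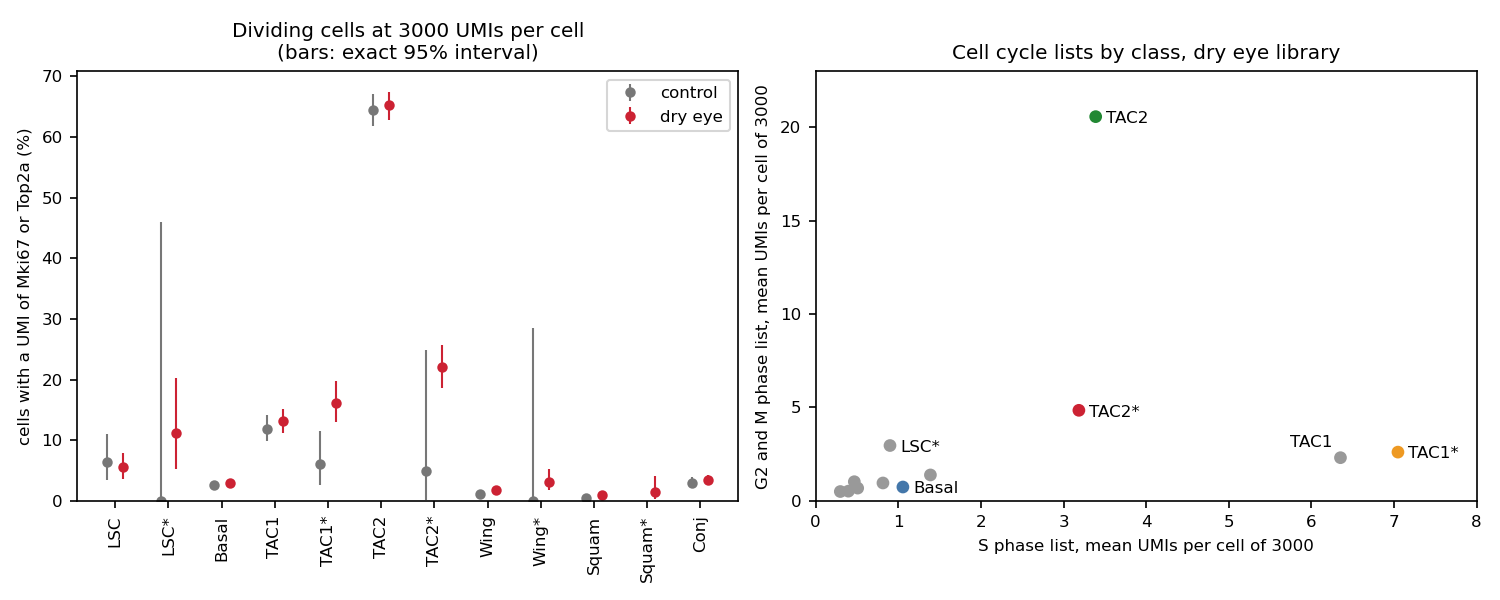
Left, share of cells (%) with a UMI of Mki67 or Top2a at 3000 UMIs per cell, by class and library, with exact 95% intervals. Right, mean UMIs of 3000 per cell from the S phase list (x) and the G2 and M phase list (y) in the dry eye classes. TAC2* cells stood at 22% and TAC2 cells at 65.2% in dry eye, and TAC2* lay far below TAC2 in the G2 and M list at a like S phase level.

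7 genes had been proposed as markers of the class: Serpina3n, Timp1, Ly6c1, Prg4, Socs3, Msn and Ltbp1. In dry eye each was higher in TAC2* than in Basal and TAC2 cells, while TAC1* cells held most of them at nearly the same level. Because they were named with results of these data known, their levels are a description. Serpina3n, a secreted serine protease inhibitor (chromosome 12, 104406729 to 104414329, GRCm38), had 65.0 CPM in TAC2*, 46.1 in TAC1*, 23.7 in LSC, 4.31 in TAC2 and 0.253 in Basal cells. The ratio to Basal was 257 (109 to 795), on 426 UMIs against 5, and 1.41 (1.21 to 1.64) to TAC1*. Timp1, an inhibitor of matrix metalloproteinases (chromosome X, 20870166 to 20874735), had 42.6 CPM in TAC2*, 38.4 in TAC1*, 22.3 in LSC*, 3.73 in TAC2 and 0.253 in Basal cells. Its order put TAC2* above TAC1* by 1.11-fold, with an interval of 0.927 to 1.32 that includes 1.

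Ly6c1, a surface protein anchored by a lipid (chromosome 15, 75044018 to 75048830), was the most abundant marker, with 113 CPM in TAC2*, 91.1 in TAC1*, 9.46 in TAC2 and 1.27 in Basal cells. Socs3, which is induced by the transcription factor STAT3 and brakes signals of the interleukin 6 family (chromosome 11, 117966079 to 117970047), had 70.5 CPM in TAC2*, 63.7 in LSC*, 52.7 in TAC1*, 6.62 in TAC2 and 2.38 in Basal cells. Ltbp1, a matrix protein that holds latent TGF-beta (chromosome 17, 75005568 to 75392512), had 41.0 CPM in TAC2* and 42.7 in TAC1*, a ratio of 0.961 (0.807 to 1.14). These 3 genes thus put both starred TAC classes together and far above the classes of the same names without the asterisk.

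Prg4 and Msn marked other cells more strongly. Prg4, also called lubricin (chromosome 1, 150449412 to 150466165), had 51.3 CPM in LSC*, 23.2 in TAC2*, 5.68 in Wing*, 4.91 in TAC1* and 1.94 in TAC2 cells. With 152 UMIs against 1, its ratio to Basal was 458 (81.0 to 18206), and its ratio to TAC1* was 4.72 (3.18 to 7.24). The 10 cells richest in Prg4 held 33.6% of its UMIs in the class. Msn, or moesin, a linker of actin to the membrane (chromosome X, 96096042 to 96168552), had 30.8 CPM in TAC2* against 104 in LSC*, 21.8 in TAC1*, 5.94 in TAC2 and 0.709 in Basal cells. Summed over all 7, the level was 386 CPM in TAC2*, 298 in TAC1*, 289 in LSC*, 105 in LSC, 96.7 in Wing*, 35.8 in TAC2 and 6.43 in Basal cells. The 31 Immune cells summed to 260 CPM, all of it from 13 UMIs of Socs3 and Msn.

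**Figure D3:**
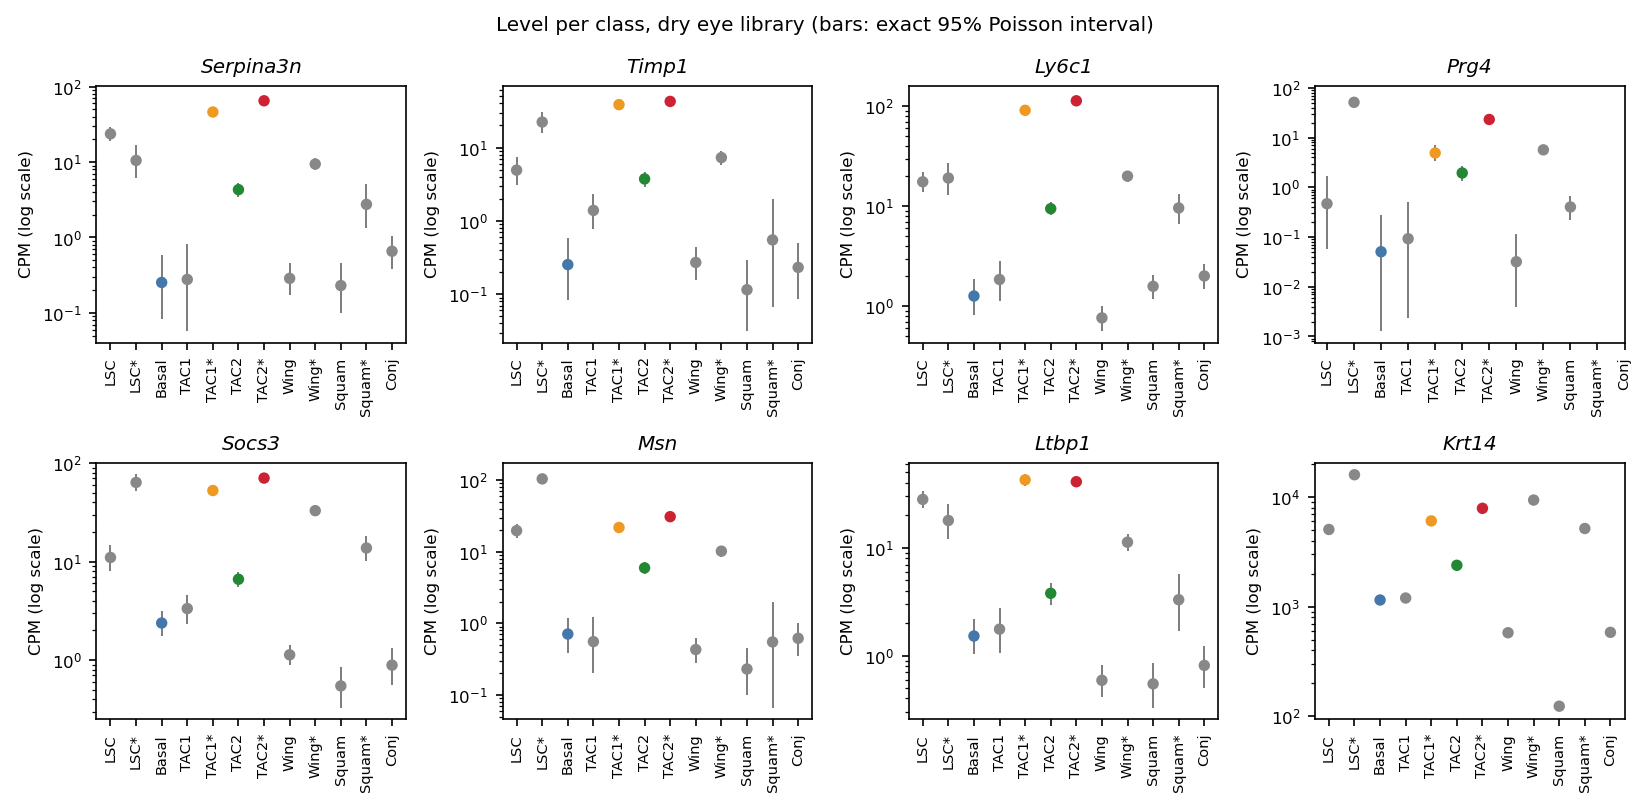
Level in CPM (log axis) of the 7 markers and of Krt14 in each epithelial class of the dry eye library, with exact 95% Poisson intervals. Classes at 0 UMIs are not drawn. The 4 coloured classes show TAC2* (red) and TAC1* (orange) close to each other in all panels but Prg4, and above TAC2 (green) and Basal (blue) in each.

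Single cells held few marker UMIs. At 3000 UMIs per cell the share of TAC2* cells with a UMI was 28.3% for Ly6c1, 17.0% for Socs3, 13.6% for Serpina3n, 12.0% for Ltbp1, 10.6% for Timp1, 7.16% for Msn and 4.47% for Prg4. At least 1 of the 7 was seen in 359 of 559 cells (64.2%), against 53.2% of TAC1*, 22.5% of LSC, 6.51% of TAC2, 1.90% of Basal and 0.736% of Squam cells. 2 or more were seen in 23.1% of TAC2* and 0.938% of TAC2 cells. Squam cells, at 9518 UMIs a cell nearly as deep as TAC2*, gave the background of these shares. The share with at least 1 marker was 64.5% in the upper and 64.1% in the lower island, and the summed level 369 and 393 CPM. Socs3, at 0.539 (0.417 to 0.690), and Prg4 were lower in the upper island, Ly6c1 and Timp1 were slightly higher, at 1.20 (1.02 to 1.40) and 1.31 (1.0 to 1.69), and Serpina3n, Ltbp1 and Msn had intervals that include 1.

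The start regions of the markers were searched for 2 motifs on both strands, TTCNNNGAA, the spaced palindrome that STAT factors bind, and TGANTCA, which includes the site of AP-1. RefSeq (GRCm38.p6) gave 8 windows of 300 bases, from 250 before to 50 after a gene's start, for 6 of the 7 markers. TTCNNNGAA was found in 1 of the 8 and in 8.30% of 32851 windows of that length, and TGANTCA in 0 of the 8 and 7.81% of all. The match lay 154 bases before the RefSeq start of Socs3, and is shown because Socs3 is the marker known as a STAT3 target. The gene coordinates given above place the start farther out, at 117970047, so by them the match lies inside the gene. The stretch is chr11:117969502-117969530, minus strand, with the motif in capitals.
Socs3: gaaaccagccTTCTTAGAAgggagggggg
For the 2 markers with the highest ratio to Basal cells among those with a window, the 250 bases before the start are given as examples of regions that hold neither motif and therefore carry no capitals (Timp1, chrX:20869916-20870165; Serpina3n, chr12:104406458-104406707, both on the plus strand).
Timp1: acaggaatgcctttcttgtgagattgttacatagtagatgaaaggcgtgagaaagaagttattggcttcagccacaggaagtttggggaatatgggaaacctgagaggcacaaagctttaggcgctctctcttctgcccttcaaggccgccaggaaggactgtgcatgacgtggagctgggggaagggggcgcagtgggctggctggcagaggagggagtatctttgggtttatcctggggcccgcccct
Serpina3n: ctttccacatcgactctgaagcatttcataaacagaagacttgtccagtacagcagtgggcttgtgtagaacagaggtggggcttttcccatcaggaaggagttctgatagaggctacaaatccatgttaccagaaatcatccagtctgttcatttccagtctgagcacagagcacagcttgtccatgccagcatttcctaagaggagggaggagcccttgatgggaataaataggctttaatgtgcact
A match of letters is a description and shows no binding.

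The first comparison set TAC2* against TAC1*, the other starred TAC class of dry eye, and it called the fewest genes of the 3 comparisons, with the cell cycle lists on opposite sides. Of 4900 genes, 59 were called higher (1.2%) and 43 lower (0.878%). Of the G2 and M phase list 16 of 21 members compared were higher and 0 lower, with a median log2 ratio of 2.25, and of the S phase list 12 of 21 were lower and 0 higher, with a median of -1.05; over all genes compared the median was -0.03. Ccnb2, a cyclin of mitosis, had 45.1 CPM in TAC2* and 1.96 in TAC1*, a ratio of 23 (13.0 to 45.0). Nusap1, a spindle protein, was 20-fold (10.7 to 42.4) higher, Hmmr, which binds hyaluronan and spindle microtubules, 10.2-fold, and Ube2c, a ubiquitin conjugase of the anaphase complex, 8.35-fold (6.67 to 10.6). Lower were Cdc6, which loads the replicative helicase, at 3.66 against 23.6 CPM (0.155, 0.0964 to 0.240), the DNA repair glycosylase Ung at 0.228, the licensing factor Cdt1 at 0.302 and Mcm3, a subunit of the helicase, at 0.330 (0.284 to 0.381). Without the 10 cells of each class richest in the gene, the ratio of Hmmr was 54.5. That setting also takes UMIs from the class where a gene is low, so it cannot show whether few cells carry a difference.

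Of the 102 genes called, 28 were in the 2 cell cycle lists, 8 in other lists and 66 in none. Tnip3, an inhibitor of NF-kappaB signals, was 5.72-fold (3.63 to 9.43) higher in TAC2* than in TAC1* cells, and 11.4-fold without the 10 richest cells of each class. Over all genes compared 2.08% were called, so a short list would often hold none whatever its members. Of the 28 other gene lists, 22 had 0 members called in either direction. The called members of the rest were Prg4, Krt16 at 2.07 (1.94 to 2.22), the calprotectin subunits S100a8 at 7.85 and S100a9 at 4.42, the cornified envelope precursor Sprr1a at 2.53 (2.04 to 3.16), the EGF receptor ligand Epgn at 2.13, Phlda1 at 2.31, and, lower in TAC2*, the interferon-induced Ifi27l2a at 0.352 (0.247 to 0.495). The top 10 cells held 59.0% of the S100a8 UMIs of TAC2* cells, and without the 10 richest cells of each class its ratio was 14.1. For Tnip3 and S100a8 too, that setting takes UMIs from both classes and cannot show whether the difference rests on few cells. Krt16, S100a8, S100a9 and Sprr1a all had higher levels in LSC* and Wing* than in TAC2* cells, with 9031 and 11059.8 CPM of Krt16 against 428.

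The second comparison set TAC2* against TAC2, the class of the same name without the asterisk. Of 5158 genes, 173 were called higher (3.35%) and 330 lower (6.4%). The lower ones included 26 of 26 genes of the G2 and M phase list, with a median log2 ratio of -2.11, while 0 of 18 S phase genes were called in either direction (median 0.13) and the median over all genes was -0.06. Cenpf, a kinetochore protein, had 41.8 CPM in TAC2* and 357 in TAC2 cells, a ratio of 0.117 (0.103 to 0.132), and Aspm, a protein of spindle poles, 9.15 and 79.0 CPM (0.116). Mki67 stood at 63.0 and 263 CPM. Higher in TAC2*, besides the markers, were Fabp4 at 13.1-fold (10.2 to 17.0), the secreted guidance factor Sema3c at 9.65-fold and the surface protein Ly6a, also called Sca-1, with 836 against 96.0 CPM, at 8.71-fold (8.26 to 9.19). Krt14, the keratin of basal layers, had 7876 CPM in TAC2* and 2379 in TAC2 cells, 3.31-fold (3.27 to 3.35).

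**Figure D4:**
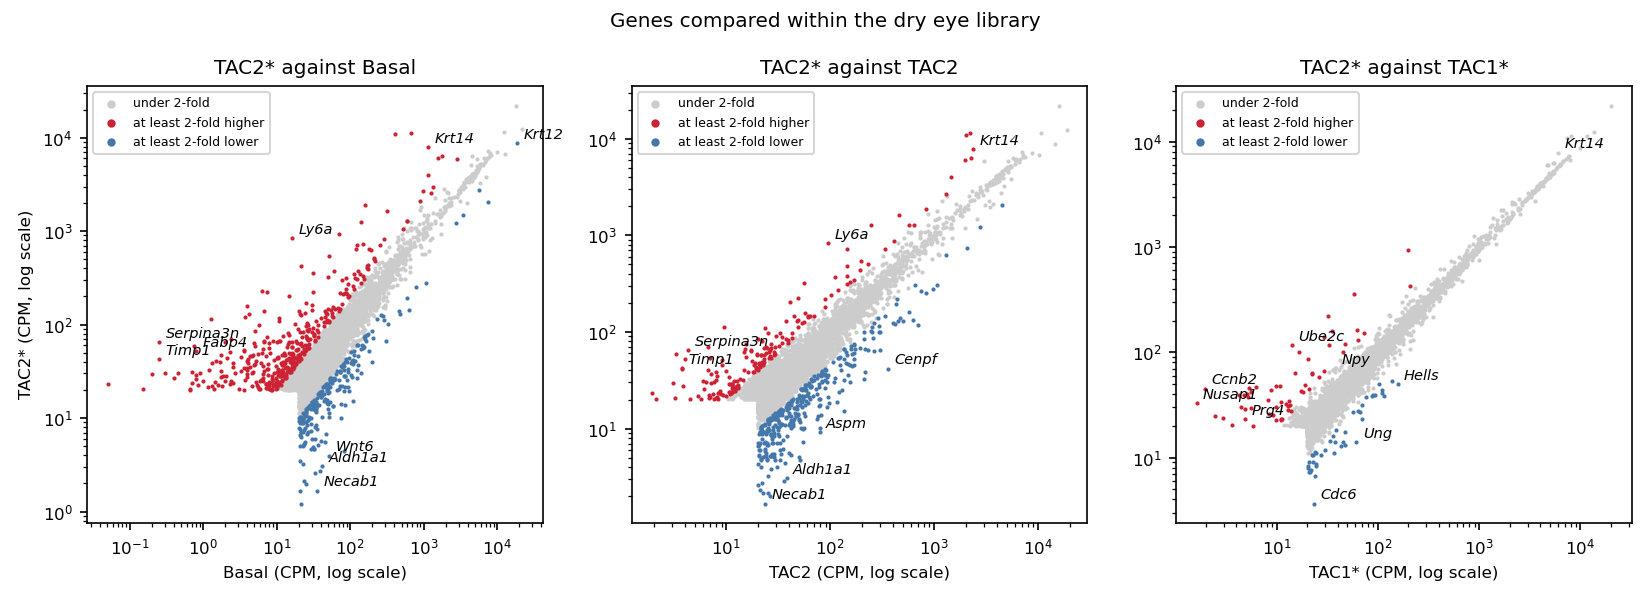
Level of each gene compared in TAC2* cells (y, CPM, log axis) against Basal, TAC2 and TAC1* cells (x, CPM, log axis) of the dry eye library, with genes at least 2-fold higher in red and lower in blue; genes at 0 UMIs in a class are not drawn. The cloud is narrowest against TAC1*, where 102 of 4900 genes lie outside 2-fold, against 633 of 4986 for Basal and 503 of 5158 for TAC2.

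The classes held different shares of cells with a UMI of Mki67 or Top2a. The comparison was therefore repeated within cells with and within cells without one, a choice made after the data were seen. This split does not match cell cycle phase. Of 1705 thinned TAC2 cells, 1239 had 10 or more UMIs of the G2 and M list, but only 1112 had Mki67 or Top2a. In TAC2* the counts were 115 and 123 of 559. Among thinned cells with a UMI of Mki67 or Top2a, 123 TAC2* against 1112 TAC2 cells, 237 of 5360 genes were higher (4.42%) and 509 lower (9.5%). There Serpina3n was 22.6-fold (10.5 to 52.7), Timp1 31.0-fold (13.0 to 85.2), Ly6c1 20-fold (12.0 to 34.4), Socs3 12.8-fold (6.58 to 25.3) and Krt14 3.51-fold (3.35 to 3.67) higher in TAC2*. Among cells without such a UMI, 436 against 593, 210 of 4948 genes were higher (4.24%) and 271 lower (5.48%), with ratios of 32.2 (10.6 to 160) for Serpina3n on 3 TAC2 UMIs, 14.6 (5.31 to 56.1) for Timp1, 10.2 (6.47 to 17.0) for Ly6c1, 29.6 (11.1 to 111) for Socs3 and 3.44 (3.32 to 3.57) for Krt14. These 4 markers thus stood higher in TAC2* than in TAC2 cells in both sets, in which phase was not matched. In all cells, without the 10 richest cells of each class, the ratios to TAC2 of Serpina3n, Prg4 and Fabp4 were 35.1, 32.9 and 21.1. This setting also removes TAC2 UMIs, of which Serpina3n had 82 and Prg4 had 37, so it cannot show whether few cells carry a difference.

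The third comparison set TAC2* against Basal cells, the layer that dividing corneal cells belong to. Of 4986 genes, 391 were called higher (7.84%) and 242 lower (4.85%), with a median log2 ratio of 0.10 over all of them. All 21 compared genes of the G2 and M phase list (median log2 ratio 4.13) and all 18 of the S phase list (1.92) were called higher. Krt6a, Krt6b, Krt16 and Krt17, the 4 stress keratins listed, were all called higher, with a median log2 ratio of 3.95: Krt6a had 1884 against 157 CPM (12.0-fold), Krt16 428 against 21.6 CPM (19.8-fold, 17.9 to 22) and Krt17 130 against 4.15 CPM (31.3-fold, 24.9 to 39.7). Krt14 had 7876 against 1147 CPM, 6.87-fold (6.76 to 6.98), while its partner Krt5 stood at 0.935 (0.924 to 0.947) and the limbal keratin Krt15 at 0.834. At 3000 UMIs the median TAC2* cell held 22 UMIs of Krt14, with 15 and 29 as quartiles, against 17 in TAC1*, 4 in TAC2 and 2 in Basal cells. Of Krt6a the median cell held 4 UMIs in TAC2*, 0 in Basal, 16 in Squam and 23 in LSC*.

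Against Basal cells 7.84% of all genes compared were called higher and 4.85% lower. Of 15 compared genes of basal keratins and adhesion, 4 were higher and 0 lower than in Basal cells. Among these, besides Krt14, were the laminin chain Lamb3, of the basement membrane, at 2.58-fold (2.27 to 2.93) and the integrin Itga6, part of a laminin receptor, with 501 against 214 CPM (2.34-fold). Lama3, another laminin chain, had a ratio of 1.65 (1.48 to 1.83), under the 2-fold line. Against TAC2 cells, where 3.35% of all genes compared were called higher and 6.4% lower, 6 of 16 genes of this list were higher. Among them were Itga6, Itga3, Lama3, Lamb3 and Krt14. The 1 called lower was Krt15, at 131 against 629 CPM (0.209). Against TAC1*, where 2.08% of all genes compared were called, it was 0 of 15. Reads of near-identical genes (Krt6a and Krt6b, Ly6a and Ly6c1, the Serpina3, stefin and histone families) may have been split between copies, so the level of each member is uncertain.

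Secreted defence genes were called only higher, and protease inhibitors and matrix genes in both directions. Over all genes compared with Basal cells 7.84% were called higher and 4.85% lower, so a short list may hold 1 lower gene whatever its members. Of 5 antimicrobial genes compared 4 were higher and 0 lower than in Basal cells: S100a9 with 158 against 3.90 CPM (40.4-fold, 32.0 to 51.6), S100a8 (23.1-fold), Pglyrp1, which binds bacterial cell wall (5.43-fold), and Wfdc2, a small secreted protein of whey acidic type, with 1279 against 598 CPM (2.14-fold). Of 11 serpins and stefins 6 were higher and 1 lower. Cstdc5, a stefin-like inhibitor of cysteine proteases, reached 11329 CPM against 669 in Basal (16.9-fold, 16.6 to 17.2), 2225 in TAC2 and 8125 in TAC1* cells, and Serpinb5, or maspin, was 2.20-fold higher, while the cystatin Cst6 was lower, at 0.224 (0.154 to 0.317). Among matrix genes, 3 of 12 were higher and 1 lower: Sparc, a matricellular protein that binds collagen, had 322 against 50.5 CPM (6.37-fold, 5.91 to 6.88), and fibronectin, Fn1, 31.1 against 92.8 CPM (0.335, 0.289 to 0.387). Of 9 genes of matrix proteases and their inhibitors 2 were higher, Timp1 and Htra1, and 1 lower. Htra1, a secreted protease, was 3.20-fold higher, and Timp3, a relative of Timp1, was lower at 0.260 (0.187 to 0.355), so the 2 inhibitors stood on opposite sides. Against TAC1*, where 2.08% of all genes compared were called, 0 of 10 serpins and stefins and 0 of 8 protease and inhibitor genes were called. For the other lists it was 2 of 5 antimicrobial and 1 of 12 matrix genes, all higher.

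Genes of the interleukin 6 and STAT3 pathway differed in part. Against Basal cells 7.84% of all genes compared were called higher and 4.85% lower, with a median log2 ratio of 0.10. Of 13 genes of the pathway compared, 3 were called higher and 1 lower than in Basal cells, with a median of 0.56. The 3 were Socs3, Bcl3, a nuclear partner of NF-kappaB, at 38.7 against 4.05 CPM (9.57-fold, 7.41 to 12.5), and the transcription factor Cebpd at 4.12-fold (3.55 to 4.78). Stat3 itself had a ratio of 1.78 (1.59 to 2.0), and the receptor chains differed from each other: Osmr, for oncostatin M, stood at 1.47, the shared Il6st at 1.07 (0.858 to 1.32) and Lifr, for leukemia inhibitory factor, at 8.39 against 34.6 CPM (0.242, 0.181 to 0.319). Against TAC1* 0 of 12 were called, beside 2.08% of all genes compared. Of 11 interferon and MHC class I genes 3 were higher and 1 lower. Ifitm3, which blocks virus entry, had 1265 against 139 CPM (9.08-fold), Ifitm1 was 10.4-fold and the immunoproteasome subunit Psmb8 3.27-fold higher, and Ifi27l2a was lower, at 0.246 (0.179 to 0.330). The MHC class I genes B2m and H2-K1 stood at 1.78 and 1.45. Of 4 cytokine genes with enough counts only Cxcl16 was called, at 4.4-fold (3.56 to 5.45). Il1f9, a cytokine of the interleukin 36 group not in that list under this symbol, had 30 against 0.304 CPM on 197 and 6 UMIs (98.9-fold, 44.6 to 273), and 175 CPM in LSC*.

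Of 12 glycolysis genes compared, 8 were higher and 0 lower than in Basal cells, with a median log2 ratio of 1.21. The values over all genes compared were 7.84% higher, 4.85% lower and a median of 0.10. The 8 ran from Aldoa at 2.16-fold to Pfkp, the platelet form of phosphofructokinase, at 30.2 against 2.73 CPM (11-fold, 8.14 to 15.2), and included the glucose carrier Slc2a1 at 2.75-fold and pyruvate kinase, Pkm, at 2.81-fold. Against TAC2 5 of 12 were higher, beside 3.35% of all genes, and against TAC1* 0 of 13, beside 2.08% called there in either direction. Of 35 genes of the actin cytoskeleton and its membrane links, 13 were higher and 0 lower than in Basal cells (median log2 0.64), among them Msn, the tropomyosin Tpm4 at 3.59-fold and cofilin, Cfl1, at 2.71-fold. Against TAC2 6 of 35 were higher and 1 lower, and against TAC1* 0 of 35 were called. The metallothioneins Mt1 and Mt2, which bind zinc, had 6291 and 6009 CPM, 3.59-fold and 3.89-fold the Basal levels. Fabp5, an epidermal fatty acid-binding protein, had 10907 CPM against 402 (27.1-fold, 26.5 to 27.8), and was seen in all 572 cells. Ly6a was seen in 97.9% of the cells and had 836 against 16.4 CPM (51.0-fold, 45.6 to 57.2). Its level was 727 CPM in TAC1* and higher still in Squam (1629), Conj (1370) and Squam* cells (1140).

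Some genes of corneal differentiation and of several signals were lower than in Basal cells, where 4.85% of all genes compared were called lower. Of 17 corneal identity genes 4 were lower and 1 higher, with a median log2 ratio of -0.42. Krt12 had 8727 against 18825 CPM (0.464, 0.460 to 0.468), Slurp1, a secreted Ly6 protein of the cornea, 2048 against 7567 CPM (0.271), the desmosomal cadherin Dsg1a 13.9 against 85.0 CPM (0.163) and Aldh1a1, which makes retinoic acid, 3.05 against 41.5 CPM (0.0735, 0.0446 to 0.114). Aldh3a1 at 0.528, Tkt at 0.533 and Pax6 at 0.749 (0.713 to 0.787) stayed within 2-fold, and Clu, a secreted chaperone, was 5.83-fold higher. The Wnt ligands Wnt6, with 3.97 against 51.5 CPM (0.0770, 0.0501 to 0.114), and Wnt10a (0.200, 0.166 to 0.239) were the 2 of 10 Wnt genes called lower, and 0 were higher. The BMP target Id2 had a ratio of 0.287 and Id1 one of 2.96. Of 8 targets of YAP compared, 3 were lower and 0 higher, led by the clotting initiator F3 at 0.219 (0.198 to 0.241). Among the lowest ratios in the comparison were those of Necab1, a neuronal calcium-binding protein (0.0475, 0.0236 to 0.0855), Adamts18, a secreted protease (0.0567), and Gldc, of the glycine cleavage system (0.0697), and these 3 had only 11, 8 and 18 UMIs in TAC2* cells, too few to be compared with TAC1*.

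**Figure D5:**
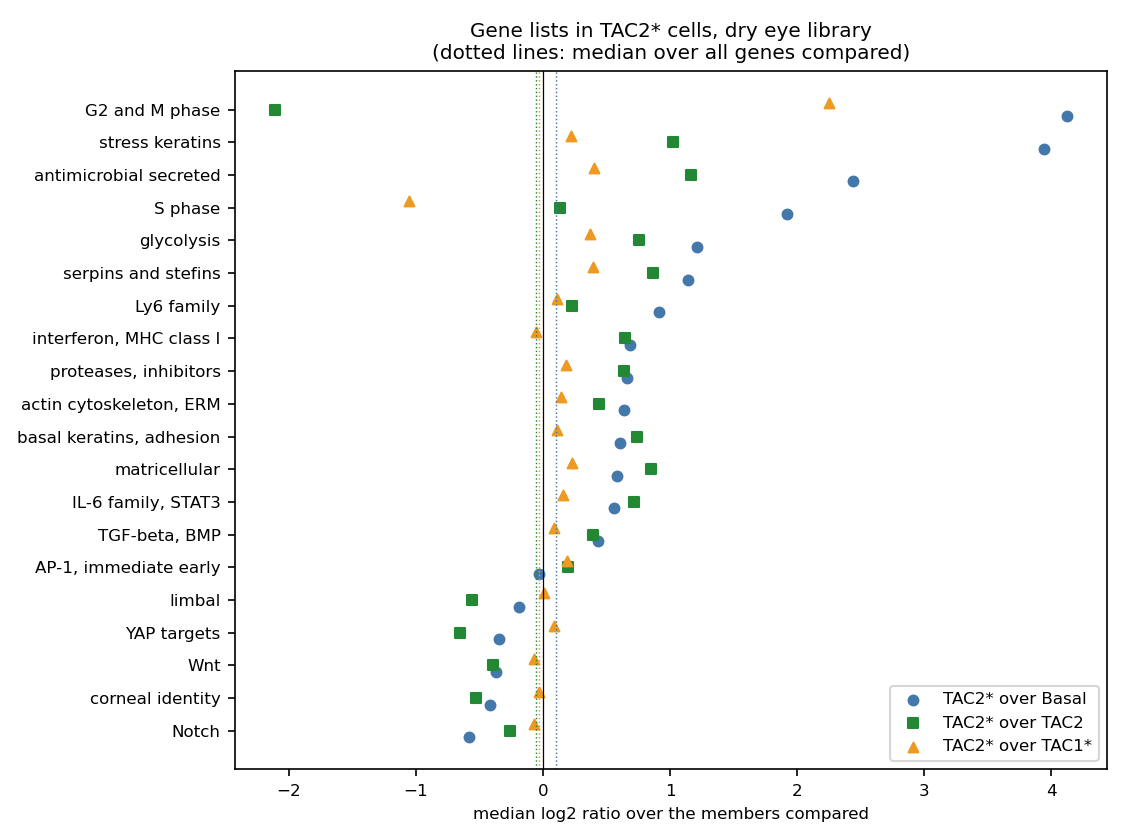
Median log2 ratio of TAC2* over Basal (blue circles), TAC2 (green squares) and TAC1* cells (orange triangles) for 20 gene lists, over the members compared; dotted lines show the median over all genes. Against TAC1* only the 2 cell cycle lists lie beyond 1 in either direction.

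With the Basal cells of the control library in place of those of dry eye, 819 of 5123 genes were called, 471 higher and 348 lower, and the ratios were 677.7 for Krt16, 167 for Krt17, 75.4 for Fabp5, 58.1 for Cstdc5, 29.3 for Krt6a and 18.5 for Krt14, which compare 2 libraries, so that condition and library cannot be told apart. Among cells without a UMI of Mki67 or Top2a, 436 TAC2* and 2558 Basal cells, 340 of 4979 genes were higher (6.83%) and 269 lower (5.4%), with Krt14 at 7.39-fold, Krt16 at 23-fold, Ly6a at 50.8-fold and Krt12 at 0.509.

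No gene was particular to the class at the 2-fold line. Of 4569 genes with at least 50 UMIs and 20 CPM in TAC2*, 239 had their highest level there, and for 143 of these TAC1* came next. 0 of the 4569 stood at least 2-fold above every other class. At 1.5-fold there were 3: Npy with 71.2 CPM against 38.1 in TAC1* (1.87, 1.59 to 2.20), the quinone reductase-like Cryzl2 (1.71, 1.28 to 2.31) and Ripk3, a kinase of necroptosis, with 46.1 against 29.9 CPM (1.54, 1.28 to 1.86). Next came Serpina3n at 1.41. Snai2, or Slug, a transcriptional repressor known for driving the epithelial to mesenchymal transition, was 1.28-fold (1.12 to 1.47) above its next class, LSC, at 92.7 CPM. With the other starred classes left aside, 45 genes were at least 2-fold above every class, led among named genes by Prg4 (11.9-fold, next TAC2), Fabp4 (10.7-fold, next Wing), Timp1 (8.65-fold, next LSC), Arl4d (7.69-fold), Sh2d5 (7.28-fold) and Ly6c1 (6.46-fold).

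The difference of TAC2* from TAC2 was set beside that of TAC1* from TAC1, which share no cells. Among 4745 genes compared in both pairs, 144 were higher in TAC2* than TAC2 (3.03%) and 156 higher in TAC1* than TAC1 (3.29%), and 105 were in both, 72.9% and 67.3% of each. Of the 184 lower in TAC2* (3.88%) and the 102 lower in TAC1* (2.15%), 83 were in both, 45.1% and 81.4%. Serpina3n was 15.1-fold and 166-fold higher in the 2 pairs, Ly6a 8.71-fold and 24.8-fold, Krt14 3.31-fold and 5.06-fold and Sparc 5.80-fold and 5.36-fold. By the share of genes past 2-fold, TAC2* cells stood nearest to TAC1* (2.08%), then TAC2 (9.75%), TAC1 (10.5%) and Basal (12.7%), and farther from LSC (14.4%), LSC* (21.0%), Wing* (27.3%) and Wing cells (31.4%). In a graph of 15 nearest neighbours over 30 components, 80.5% of the neighbours of a TAC2* cell were TAC2*, 12.0% TAC1* and 4.13% TAC2 cells. Without the genes of the 2 cell cycle lists the shares were 73.6%, 19.6% and 3.73%.

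In the 21 control cells of the class 6 of the 7 markers had intervals below their dry eye level, and that of Timp1 included it. They held 195999 UMIs in all, so genes were compared there only from 200 CPM. Timp1 had 3 UMIs in these cells, or 15.3 CPM (3.16 to 44.7), against 42.6 in dry eye. Ly6c1 had 2 UMIs, or 10.2 CPM (1.24 to 36.9), Serpina3n and Socs3 had 1 each, or 5.10 CPM (0.129 to 28.4), and Prg4, Msn and Ltbp1 had 0, which allows up to 18.8 CPM by the exact limit against 23.2, 30.8 and 41.0 CPM in dry eye. Of 671 genes, 31 were higher in control than in dry eye TAC2* cells (4.62%) and 60 lower (8.94%). Ly6a had 25.5 against 836 CPM, Krt14 985 against 7876, Fabp5 541 against 10907, Ifitm3 102 against 1265, and Krt16 1 UMI against 2804, while Krt12 had 20674 against 8727 CPM and Krt15 979.6 against 131. Against control Basal cells 11 of 592 genes were higher (1.86%) and 0 lower (0.0%), among them Krt15 at 10.1-fold (8.64 to 11.7), Cstdc5 at 6.23-fold, Krt6a at 5.01-fold, Fabp5 at 3.74-fold and Krt14 at 2.31-fold (2.0 to 2.67). Against control TAC2 cells 5 of 643 genes were higher (0.778%) and 46 lower (7.15%), and against control TAC1* cells 6 of 604 were higher (0.993%) and 3 lower (0.497%). Mki67 or Top2a was seen in 1 of 20 thinned control cells, 5.0% (0.127 to 24.9). The control and dry eye cells of this name thus shared the name and the sign of Krt14, Krt6a, Cstdc5 and Fabp5 against the Basal cells of their library. They did not share the level of 6 of the 7 markers. For Timp1, 3 UMIs in the control cells were too few to tell. Krt15, higher than in control Basal cells, was not called against Basal cells in dry eye.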

How the data were processed

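Single-cell RNA libraries (Chromium Next GEM 3ʹ, chemistry 3.1, per the labels' protocols) of 1 control and 1 dry eye pool were deposited as raw UMI counts per gene and cell. Per the submitters' processing notes, mm10 was the build, and the tools included Seurat 4 and Cell Ranger 6.0.1. The class names and the 2 embedding coordinates, which are scores with no unit, were deposited by the authors per the file headers, while the sources used here do not give the filters, the classing of cells or any removal of doublets. The table held 17891 genes and 33885 cells, and no further cell filter or doublet caller was applied. Libraries totalled 191493194 (control) and 207030777 UMIs (dry eye).

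Counts were summed by class and library with Python 3.11.15, numpy 2.4.6, scipy 1.17.1, pandas 2.3.3, scanpy 1.11.5 and scikit-learn 1.9.0. A ratio of CPM has the exact Clopper-Pearson interval of the split of both counts, a share the Clopper-Pearson interval and a level the exact Poisson interval, each at 95% and for counting error only. A ratio was called from 2-fold or at 0.5 and below, among genes with 50 UMIs over both classes and 20 CPM in one. Control TAC2* cells were compared from 200 CPM. A level of 0 allows 3 counts at most where a bound is used. For shares of cells, 3000 UMIs were drawn from each cell, and 13 dry eye TAC2* cells below that were left out. Classes were drawn from the same genes, so comparisons between them are descriptions. The calls and intervals were also run on simulated Poisson counts of whole classes, the model that the intervals assume. That run left out the clumping of UMIs in single cells, so it cannot show how well the intervals cover real counts. Named genes were the 10 highest and 10 lowest of each comparison by the interval bound nearest 1, the 15 with the largest ratio to the next class, from each list the top 2 and bottom 2 against Basal, and a preset group with the markers; other list members are named with their list. The members, the 30 lists and the markers were chosen with earlier results of these data known. The split into islands and the comparisons within cells with or without a UMI of Mki67 or Top2a were chosen after seeing the data. Alternatives were other count filters, a 3-fold line, cells of at least 2000 UMIs, cells without the top 5% by UMIs, means over cells, totals without the 20 highest genes, single genes without their 10 richest cells, and control Basal cells. Some results are not reported here.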

Additional observations from a re-analysis of the deposited data

How the results depend on the processing

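No paired analysis was possible because each group is 1 library. With 20 UMIs and no CPM minimum, the genes past 2-fold numbered 2246 against Basal, 1729 against TAC2 and 446 against TAC1* cells, and at 3-fold 286, 210 and 44; fewer or more genes enter by construction. The share higher against Basal was 61.8% and 46.1% without the CPM minimum, and against TAC1* 57.8% and 77.3% at 3-fold. Among TAC and Basal cells only, TAC2* made up 8.35% of dry eye and 0.305% of control cells. The share with Mki67 or Top2a was 33.9% without thinning and 16.5% at 2000 UMIs. Genes 2-fold above every other class numbered 1 with 20 UMIs and 45 without the other starred classes. Among cells with a UMI of Mki67 or Top2a 746 genes were past 2-fold against TAC2, and among cells without one 609 against Basal. Of 2460 ratios of named genes under these settings 2116 lay within the first interval and 344 outside, 119 of them without the 10 richest cells, 101 as means over cells and 94 against control Basal cells, where Msn had 0 UMIs and no ratio. No called ratio of these changed its direction. Without the 10 richest cells of each class the ratio of Fabp4 to Basal was 147 and of Msn 255, and that of S100a9 to TAC2 6.64. Msn had 14 UMIs in Basal cells, and the 10 Basal cells left out held most of them, so its ratio rests on very few UMIs. The cause for Fabp4 and S100a9 was not tested. List medians moved in 10 of 150 cases; that of the Ly6 family went from 0.91 to -0.28 with 20 UMIs and no CPM minimum, and that of the cornified envelope from -0.14 to 0.74 over totals without the 20 highest genes.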
